A study of Mus musculus with 20 samples.

Results

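Stretches of mouse brain transcripts in which at least 8 edited cytidines follow each other at gaps of at most 50 nt were taken from 3 deposited site lists, for cerebellum, hippocampus and cortex. The lists were joined by chromosome, position and strand, which gave 25978 sites. The 284 sites at or above 35% in any list were left out, and the remaining 25694 sites were sorted along each gene and chained. A chain is therefore a run of neighbouring sites of 1 gene on 1 strand. The rule found 145 chains of at least 8 sites, which held 1452 sites, or 5.65% of the sites under 35%. They lay in 125 of 3644 genes with a site, or 3.43%. Members were chosen by position and by the 35% limit, so the number, spacing and length of chains are given as a description. The level at a listed site under the limit was not used by the rule. A site had to be listed to be chosen, however, and listing may depend on its level.

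The study used mice with a tamoxifen-inducible APOBEC1-YTH transgene and, as background for site calling, mice with APOBEC1-YTHmut. Libraries of poly(A) RNA were made from cerebellum, hippocampus and whole cortex. There were 4 APOBEC1-YTH animal numbers in the labels, each with a library from every region. APOBEC1-YTHmut had 3 libraries from cerebellum, 2 from hippocampus and 3 from cortex, under 3 animal numbers. Both genotypes received tamoxifen at 20 mg/kg every 24 h for 5 days by intraperitoneal injection, with dissection 7 days after dosing ended. Strain, age, the promoter of the transgene and the cells that express it are not stated in the labels. Each list gives 1 fraction per site for a region, read here as the share of edited reads in its APOBEC1-YTH libraries combined. It is printed as percent and called the editing level. The lists hold no read depth and no value per animal, so depth is unknown, the spread over animals cannot be given and no difference between regions was tested. A site absent from a list may be unedited, below the limits of the caller or too thinly covered, and these cannot be told apart. In bulk tissue, fewer cells of a type and less RNA per cell cannot be told apart either.

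N6-methyladenosine (m6A) is a mark on messenger RNA that is written mainly by the METTL3 and METTL14 complex, at an adenosine that has a purine before it and a cytidine after it. It is known to be frequent in long last exons and around stop codons, and it is bound by proteins with a YTH domain, which can change the decay, translation and localisation of the transcript. In APOBEC1-YTH, such a domain carries a cytidine deaminase to the mark, and the cytidine next to the methylated adenosine is read as U. Neuronal transcripts often have long 3′ untranslated regions with many such adenosines.

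The chain of Arpc4, which encodes a subunit of the actin-nucleating Arp2/3 complex, is shown because it was the 1 chain whose bases could be read from the sequences used here. It had 9 sites at chr6:113389021-113389152 on the plus strand, 1295 nt before the annotated 3′ end of Arpc4, and it lies in the RefSeq promoter window of the neighbouring gene Ttll3. The stretch below is chr6:113389011-113389162 of the plus strand (RefSeq, GRCm38.p6, the assembly of mm10), 5′ to 3′, and capitals mark the 3 bases that end at a listed cytidine.
Arpc4: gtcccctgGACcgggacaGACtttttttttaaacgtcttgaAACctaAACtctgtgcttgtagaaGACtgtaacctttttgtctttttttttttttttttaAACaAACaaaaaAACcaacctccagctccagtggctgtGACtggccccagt

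All 9 listed positions of Arpc4 were cytidines at the end of GAC or AAC. The 132 nt of its span held 28 cytidines, of which 13 ended a GAC or AAC and 15 did not. Of the 13, 9 were listed, and of the other 15 none was. Windows of 132 bases in the RefSeq promoter table held a median of 3 GAC or AAC on a strand, and 95.6% held at least 1. The chain was chosen for its many sites, so its number of such triplets is no independent finding. The caller is not stated. Whether it kept only cytidines in such triplets is not known, so the split of 9 of 13 and none of 15 is a description. A match of these letters is a description of the sequence and not a methylated site by itself.

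Arpc4 was listed in hippocampus and cortex and had no site in cerebellum. From the 5′ end, the levels in hippocampus and cortex were 1.20% and 2.76% at the first site and 2.66% and 2.7% at the fourth. The fifth had 2.63% in hippocampus and 1.08% in cortex. These 3 sites were the ones listed in both regions. The second and the sixth site were listed in cortex alone, at 1.27% and 6.29%. The third, seventh, eighth and ninth were listed in hippocampus alone, at 1.27%, 3.57%, 2.50% and 1.84%. The highest value of the chain, 6.29%, thus belonged to a site that the hippocampus list does not hold.

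The same bases were read for all 60 sites, of 33 genes, that fall in a RefSeq promoter window. They were 60 cytidines after an adenosine, 35 in GAC and 25 in AAC. In these promoter windows 9.07% of cytidines on both strands end a GAC or AAC, at 2.44 per 100 nt. Of the 60, 53 had a base other than C 3 nt before the cytidine, 54 had a base other than G right after it, and 47 had both. A run of sites that each end such a triplet cannot hold 2 sites closer than 3 nt. Over all 25978 sites, none had a neighbour at 1 or 2 nt on its strand, while 406 neighbours were 3 nt apart, 558 were 4 nt apart and 441 were 5 nt apart. Whether the caller asked for such a triplet is not known, so these counts and distances are a description. Only 9 of the 60 sites were members, all of Arpc4, so the bases of the other chains were not analysed here.

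Chains of 8, the smallest number that qualifies, were the most frequent. There were 55 chains of 8 sites, 22 of 9, 25 of 10, 35 of 11 to 14 and 8 of 15 or more. The median was 9 sites (interquartile range 8 to 11) over a span of 168 nt (138 to 201), with extremes of 56 and 514 nt. The density had a median of 5.71 sites per 100 nt and reached 14.3. Neighbouring members were a median of 16 nt apart (8 to 28, 1307 gaps), against 18 nt (9 to 32, 8985 gaps) in chains of 2 to 7 sites. Chain numbers kept declining across the limit of 8. The 55 chains of 8 had a median span of 143 nt and a median mean level of 3.88%, and the 79 chains of 7 just outside had 115 nt and 3.41%. Among chains of 8, the highest mean levels were 10.7% in Syt2, 8.78% in Slc24a3, 8.47% in Cds1 and 7.85% in App. Among chains of 7 they were 12.4% in Slc30a4, 9.33% in Myo5a, 8.67% in Ina and 7.22% in Slitrk1.

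**Figure D1:**
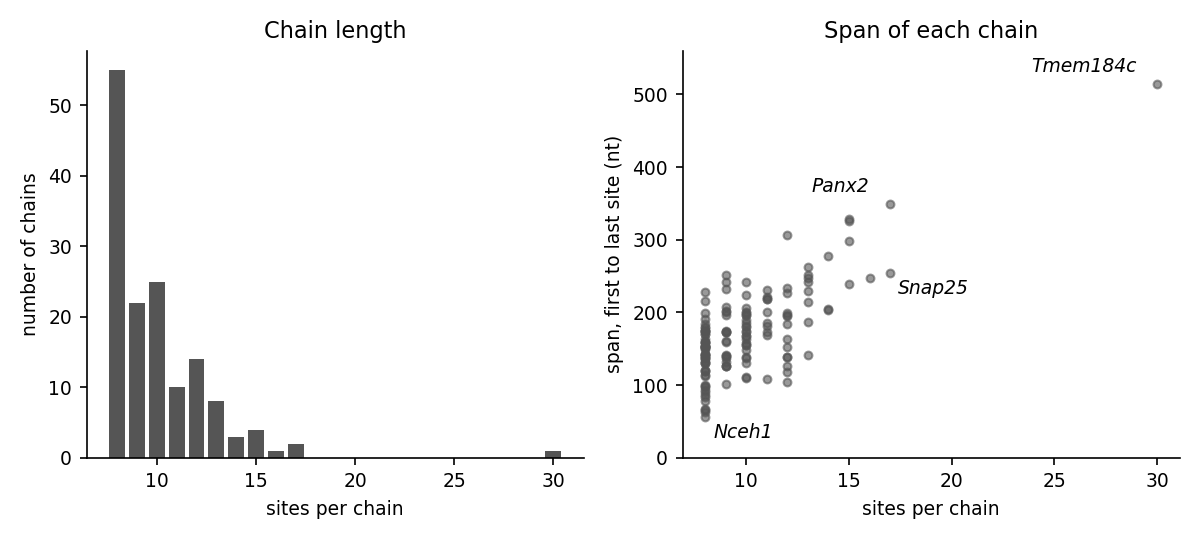
Number of sites per chain (left, number of chains) and the span of a chain in nt against its number of sites (right, 1 point per chain). Chains of 8 were the most frequent members at 55, and Tmem184c stands apart with 30 sites over 514 nt.

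The longest chain was in Tmem184c, a gene of a transmembrane protein, with 30 sites over 514 nt at chr8:77596453-77596966 on the minus strand. Panx2, a pannexin channel protein, had 17 sites over 349 nt, and Snap25, a SNARE protein of synaptic vesicle fusion, had 17 over 254 nt. Paqr8, a membrane progestin receptor, had 16 over 247 nt. Aqp4, the water channel of astrocyte endfeet, had 15 over 326 nt, and Atp2b1, a plasma membrane calcium pump, had 15 over 328 nt. Hapln4, a link protein of the perineuronal matrix, had 15 over 298 nt and a second chain of 306 nt. The adhesion protein gene Cntn1 had 14 over 277 nt, the sodium channel subunit gene Scn3b had 14 over 204 nt and the ubiquitin-conjugating enzyme gene Ube2q1 had 14 over 205 nt. Density picked other genes, given here without those named only by a clone. Nceh1, a neutral cholesterol ester hydrolase, had 8 sites in 56 nt (14.3 per 100 nt). The calcium sensor gene Ncs1 had 12.7 per 100 nt, the vacuolar ATPase subunit gene Atp6v1g2 11.9, the AMPA receptor subunit gene Gria2 11.5, the iron-sulfur cluster assembly gene Isca1 10.3 and the phosphodiesterase gene Pde1a 10.2.

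A single chain was found in 108 genes and a pair of chains in 15. Hspa12a, a distant member of the Hsp70 family, had 3 chains with 26 sites. Celf4, an RNA-binding protein gene of excitatory neurons, had 4 chains with 43 sites, whose 3′-most sites lay between 48 and 1952 nt from the end of the gene. The 2 chains of Paqr8 held 31 sites, those of Hapln4 held 27, those of Epb41l1 held 24, and those of Scn1a and G3bp2 held 23 each. Chains of 1 gene share its transcript and its libraries and are not independent.

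Most chains lay near the annotated 3′ end of their gene. All 145 were matched to RefSeq genes, of which 139 chains were in protein-coding genes and 5 in 4 long non-coding RNA genes, among them Oip5os1, Rian and Norad. In all, 144 chains lay within the gene, at a median of 1532.5 nt before its 3′ end (interquartile range 641 to 2696.25), and 132 of them (91.7%) were within 5 kb. The remaining chain, in Oip5os1, lay past the annotated end. By site, 91.6% of members within a gene were less than 5 kb from its 3′ end, at a median of 1668 nt, against 87.0% and 1496 nt for sites outside these chains. The chains of Ilrun, Pcdhgc3 and Tshz2 were more than 10 kb from the end. Exons were not annotated in the table used, so untranslated and coding parts were not told apart, and 14 chains overlap a second annotated gene, those of Paqr8, Hspa12a, Nefh and Aqp4 among them.

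Genes with a chain were found in lists of several kinds of protein, and most of the 125 genes with a chain were in no list. Of 315 genes in 26 lists that had a site, 37 had a chain, and 9 lists had no gene with one. Over all genes with a site the share was 3.43%, and the counts of lists are a description beside it, with no test. The lists were written with earlier results of these data known, so a share above 3.43% in a list is no independent finding. In the list of synaptic scaffold and adhesion genes 5 of 25 had a chain, among them Shank1, a scaffold of excitatory synapses, with 12 sites, Lrrc4 with 11, the synaptic organiser Cbln2 with 9 and the presynaptic adhesion gene Nrxn3 with 8. Among enzymes of calcium and cyclic AMP signalling 5 of 26 had one: the protein kinase gene Prkce with 19 sites, Camk2a and Pde1a with 12 each, the phospholipase gene Plcb4 with 9 and the calcineurin subunit gene Ppp3ca with 8.

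Some of the other chains were in listed genes of ion channels and receptors. Of 25 potassium channel genes 4 had one: the glial inward rectifier Kcnj10 with 12 sites, the modulatory subunit Kcng4 with 9, and the beta subunit Kcnab2 and the fast channel Kcnc1 with 8 each. Of 18 sodium and calcium channel genes 3 had one: Scn1a with 23 sites, Scn3b with 14 and Scn2a with 10. Glutamate receptor genes had 2 of 14, Gria2 with 21 and Gria3 with 11, and GABA receptor genes had 1 of 11, Gabra5 with 11. Among 23 genes of the synaptic vesicle, Syt2, a calcium sensor of fast release, had 18 sites, Snap25 17 and Sv2b 10. Among 23 cytoskeletal genes, the neurofilament gene Nefh had 12 sites, Ank3 and Map1b 10 each and Ank2 8. No chain was found among the 5 genes with a site in the list of cerebellar granule cell markers, 8 of hippocampal, 12 of cortical excitatory, 6 of oligodendrocyte, 1 of microglial and 1 of endothelial markers. There was also none among 5 genes of the m6A machinery, 10 immediate early genes and 4 ribosomal and respiratory genes. With so few genes, at a share of 3.43% over all, nothing is read from these counts of 0. Astrocyte markers had 2 of 10, Aqp4 and S100b, and Purkinje cell markers had 1 of 12, Kcng4.

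Sites in chains were listed in more regions than other sites. Of the 1452 members, 41.4% were in all 3 lists, 33.1% in 2 and 25.5% in 1. Of the 24242 sites outside these chains, 17.4% were in all 3 lists and 56.6% in 1. Sites of a chain share a transcript, and the lists compared here are the ones that were joined to find the chains, so these shares are a description. The lists of cerebellum, hippocampus and cortex held 59.3%, 73.1% and 83.5% of the members, against 42.6%, 50.5% and 67.7% of the other sites. The median level of members was 3.88% in cerebellum, 3.585% in hippocampus and 3.57% in cortex, against 3.28%, 2.745% and 2.82% for other sites. Levels of 10% or more were found in 9.29%, 8.66% and 10.5% of the listed members, against 7.29%, 4.75% and 4.81% of the other sites. A chain needs at least 8 listed sites and listing may depend on the level, so these levels are a description as well. Listing was graded with chain length: 26.5% of sites in chains of 3 to 7 and 12.5% of those in chains of 1 or 2 were in all 3 lists. Transcript level and read depth, which the lists do not hold, were not compared, and their part in these differences was not tested.

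A site in every region was found in 118 chains, and 30 chains had at least 8 sites in each region's own list. The cerebellum list held no site of 21 chains, the hippocampus list none of 8 and the cortex list none of 3. The 21 chains without a cerebellar site included Scn3b, Scn2a, Gabra5, the dendritic protein gene Ddn, the ephrin receptor gene Epha4, both chains of Prkce and that of Pde1a. The chain of Apc, a scaffold of Wnt signalling, had its 8 sites in cortex alone, and that of Cbln2 had its 9 sites in cortex alone. The chains of Cerk (ceramide kinase), Kcng4 and Plcb4 were in the cerebellum list alone. Atl2 and Dner, a Notch-binding protein of Purkinje cells, had at least 8 sites in cerebellum and at most 2 in cortex. The direction in which a gene's RNA differs between the regions was not measured here.

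Kcng4 had the highest peak of all chains by the mean over the regions that list a site, which for Kcng4 is 1 region. In a single list, Syt2 reached more, with 31.25% in cortex. The 9 sites of Kcng4 at chr8:119624792-119624965 on the minus strand, all in cerebellum, began with 6.49% at the 5′ end. The second, 30 nt on, had 28.95%, and sites at 87 and 108 nt and the last but 1 had 16.0%, 10.78% and 9.49%. The other 4 lay between 3.23% and 7.14%. The profile thus had a main peak near the 5′ end and further maxima behind it. Leaving out genes named only by a clone, the next highest peaks by this mean were 23.9% in Syt2, 20.2% in the lipid synthesis gene Cds1, 19.2% in the protocadherin gene Pcdh9, 18.9% in the phospholipid phosphatase gene Plpp6 and 18.7% in Celf4.

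The peak of a chain, its site with the highest mean level, was found all along the span. Counted from the first site (0) to the last (1) along the transcript, it lay at a median of 0.54 (interquartile range 0.26 to 0.75). With the span cut into 3 equal parts, it was in the 5′ part in 48 chains (33.1%, exact 95% interval 25.5 to 41.4%), in the middle part in 44 (30.3%, 23.0 to 38.5%) and in the 3′ part in 53 (36.6%, 28.7 to 44.9%). The 3 intervals overlap, and they cover the counting of chains only. The peak was the 5′-most site of 7 chains and the 3′-most of 11, and if each site of a chain were equally likely to be the peak, 30.4 chains in all would have it at an end. The difference from 30.4 was not tested. In chains of 3 to 7 sites the median place of the peak was 0.51. In these chains, which have fewer sites, the peak was at an end in 53.7% of 2168. The share for equally likely sites was not computed for them.

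The peak had a median level of 9.19% (interquartile range 6.205 to 12.2%), and it was 2.45 times the chain's median site (1.88 to 3.04), with extremes of 1.23 and 7.84. Since the peak is a maximum, it exceeds the other sites by construction. A median of 4 sites per chain (2 to 5), the peak included, reached 50% of the peak level. Longer chains did not have much higher peaks: across the 145 chains the Spearman correlation of the number of sites was 0.15 with the peak level and 0.56 with the span.

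Snap25 shows a chain with 1 leading site. Its 17 sites lie at chr2:136781674-136781927 on the plus strand, 501 nt before the gene's 3′ end. The site 163 nt from the 5′-most one had 6.08% in cerebellum, 9.84% in hippocampus and 10.7% in cortex. The site 3 nt before it had 2.39%, 3.20% and 4.28%, and the site 11 nt before it had 2.67%, 4.61% and 6.07%, in the same order. The remaining 14 sites were at or below 2.92% in cerebellum, 4.08% in hippocampus and 4.65% in cortex. The same site was therefore the highest in every region, while a neighbour 3 nt away had less than 50% of its level in each. Of the 17 sites, 7 were not listed in cerebellum and none was missing in hippocampus or cortex.

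**Figure D2:**
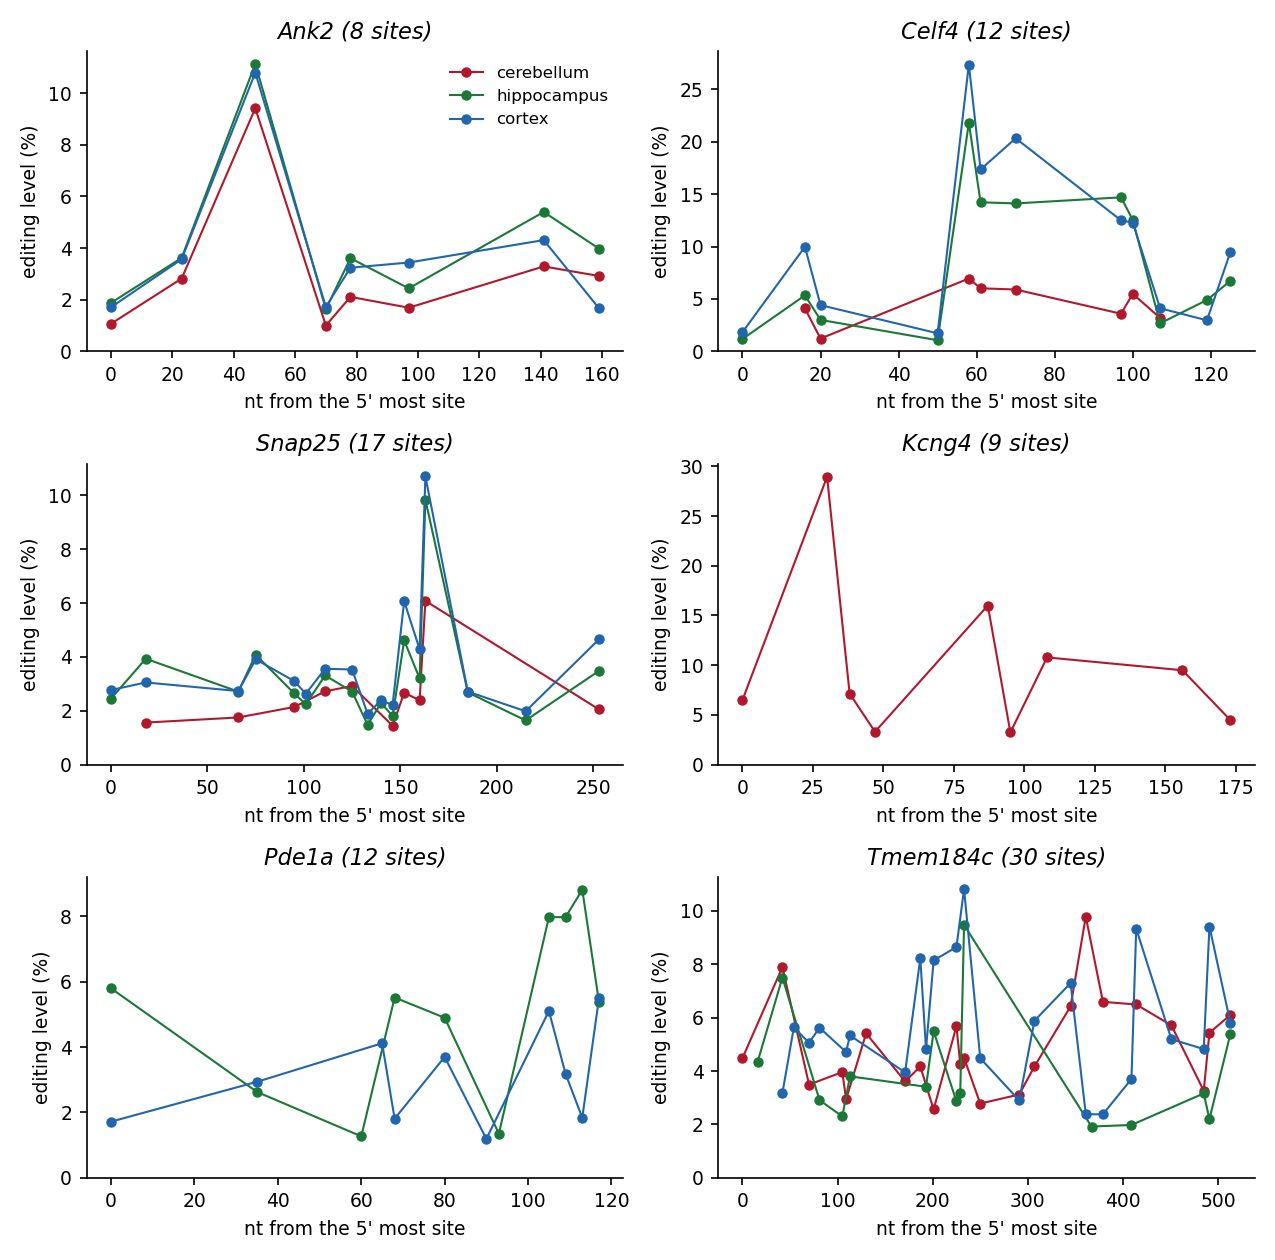
Editing level (percent) at each site of the chains of Ank2, Celf4, Snap25, Kcng4, Pde1a and Tmem184c against the distance from the 5′-most site (nt), with 1 line per region. In Snap25 the 3 regions peak at the same site at 163 nt, and in Kcng4 all 9 sites are from cerebellum.

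To read how the level falls off from a peak, the peak was set in 1 region and the level relative to it was read in another region, which had no part in choosing it. With the peak set in hippocampus and read in cortex, sites at 1 to 10 nt upstream had a median of 48.0% of the peak's level and sites at the same distance downstream had 50.7%. At 11 to 25 nt the medians were 30.7% upstream and 38.5% downstream, and at 26 to 50 nt they were 40.6% and 44.6%. Beyond 100 nt they were 37.2% and 35.8%. The level was thus about as low 11 to 25 nt from the peak as beyond 100 nt, with no steady slope between. With the peak set in cerebellum and read in hippocampus, the medians at 1 to 10 nt were 45.9% upstream and 56.7% downstream, and beyond 100 nt they were 31.8% and 40.2%. With the peak set in cortex and read in cerebellum, the values close to the peak were higher, at 75.5% upstream and 74.9% downstream. At 11 to 25 nt they were 36.1% upstream, from 41 listed sites, and 59.0% downstream, from 32. Only listed sites enter, and the share of sites listed in the region read was between 56.2% and 76.4% in cerebellum, and unlisted sites have no value in these medians. The 3 lists come from the same animal numbers.

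**Figure D3:**
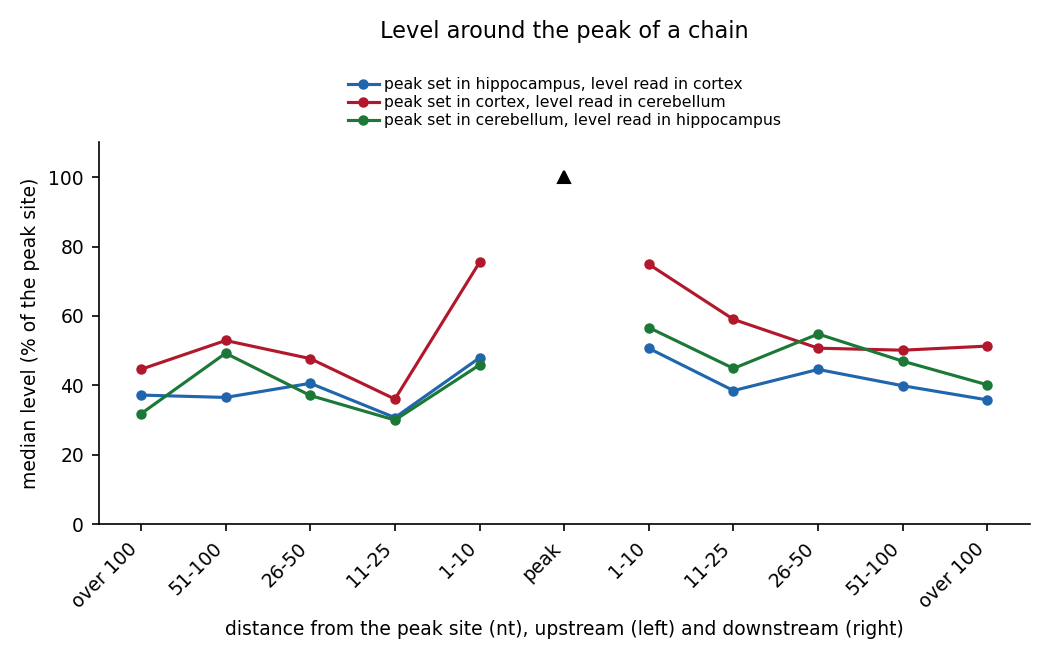
Median editing level at chain sites, as percent of the level at the peak site in the region read, against distance from the peak (nt, in bins), upstream on the left and downstream on the right. The peak was set in 1 region and levels were read in another, and with the peak set in hippocampus the cortical level was 48.0% at 1 to 10 nt upstream and 37.2% beyond 100 nt.

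The order of levels along a chain was similar between regions, though far from identical. Spearman's rho over the shared sites of a chain, for chains with at least 5, had a median of 0.65 between cerebellum and cortex (83 chains, interquartile range 0.42 to 0.80). It was 0.60 between cerebellum and hippocampus (74 chains, 0.40 to 0.76) and 0.68 between hippocampus and cortex (102 chains, 0.49 to 0.88). It was negative in 5, 4 and 4 of these chains, in the same order of pairs. The sites of a chain share libraries, transcript and sequence surroundings, and a rho over 5 to 19 sites is imprecise, so it is a description. Chains of 3 to 7 sites with at least 5 shared had medians of 0.60 (62 chains), 0.60 (52) and 0.71 (102), close to those of the longer chains. Pooled over all shared members, rho was 0.50 (708 sites), 0.50 (637) and 0.74 (939), against 0.52, 0.54 and 0.69 at sites outside these chains.

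The highest shared site was the same one in 39 of 83 chains between cerebellum and cortex (47.0%, exact 95% interval 35.9 to 58.3%), in 40 of 74 between cerebellum and hippocampus (54.1%, 42.1 to 65.7%) and in 63 of 102 between hippocampus and cortex (61.8%, 51.6 to 71.2%). If any shared site were equally likely, the averages would be 14.8%, 15.2% and 13.3%. Where the highest site differed, the 2 sites were a median of 38.5, 40 and 46 nt apart. In chains of 3 to 7 sites the same site led in 51.6%, 57.7% and 55.9%. Equally likely shared sites would give averages of 18.7%, 18.8% and 18.8% in these shorter chains. Chains were also split by how clearly they were led. The lead is taken from the same levels that set the highest site, and the cut of 1.25 was chosen after values were seen. The split is therefore a description and no independent finding. Where the highest site was at least 1.25 times the runner-up in both regions, it was the same site in 21 of 25 chains between cerebellum and cortex, 24 of 31 between cerebellum and hippocampus and 37 of 45 between hippocampus and cortex. With a smaller lead in either region it was the same in 18 of 58, 16 of 43 and 26 of 57. Read counts are unknown, so how much of the disagreement lies within counting error was not tested.

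Taking the 68 chains with at least 5 sites in all 3 regions, 31 (45.6%, 33.5 to 58.1%) had the same highest site in every region, 29 had 2 different ones and 8 had 3. The 8 with 3 different peaks were in Kcnj10, Paqr8, the neurexin gene Nrxn3, Hspa12a, the transcription factor gene Meis2, the ubiquitin ligase gene Trim2 and both chains of the chloride transporter gene Clcn4.

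**Figure D4:**
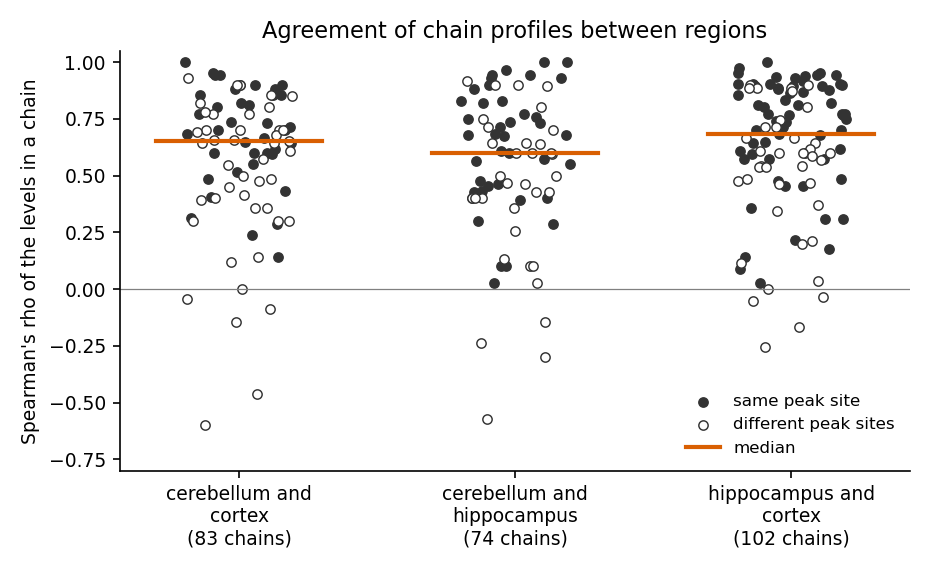
Spearman's rho of the levels along a chain between 2 regions, for chains with at least 5 shared sites (1 point per chain, filled where both regions have the same highest site, with a bar at the median), for the 3 pairs of regions. The medians are 0.65 for cerebellum and cortex, 0.60 for cerebellum and hippocampus and 0.68 for hippocampus and cortex, and few chains lie below 0.

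Ank2 encodes an ankyrin that anchors membrane proteins to the cytoskeleton. Among chains with at least 8 shared sites, it had the closest profiles between cerebellum and hippocampus (rho 1 over 8 sites). Its sites lie at chr3:126923603-126923762 on the minus strand. The site 47 nt from the 5′-most one had 9.42% in cerebellum, 11.14% in hippocampus and 10.8% in cortex. The site before it had 2.82%, 3.62% and 3.57%, and the site 23 nt after it had 1.0%, 1.63% and 1.72%. The level was thus below 2% within 23 nt of the peak on the 3′ side in all 3 regions. The next site, 8 nt on, had 2.11%, 3.61% and 3.24%, and the site at 141 nt formed a second maximum of 3.29%, 5.40% and 4.31%. The last site had 2.92%, 3.98% and 1.67% and was the lowest of the chain in cortex. The rho of cerebellum with cortex, and of hippocampus with cortex, was 0.60.

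The ranks of Spearman's rho given here and below are among chains with at least 8 shared sites, without genes named by a clone. Some chains with fewer shared sites had higher or lower values. Where a gene has several chains, the value is that of 1 of them. Apart from Ank2, rho between cerebellum and hippocampus was highest for a chain of Paqr8 (0.92), the adhesion gene Ntm (0.88) and Ube2q1 (0.77). The other chain of Paqr8 had 0.60 over 13 shared sites. Between cerebellum and cortex, the highest values were 0.95 in Epb41l1, a membrane skeleton protein gene, 0.93 in Aqp4, 0.90 in Kcnj10 and 0.88 in Celf4. Between hippocampus and cortex they were 0.98 in Atp6v1g2, 0.95 in the imprinted long non-coding RNA gene Rian, and 0.94 in both Celf4 and Ddn.

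Among chains with at least 8 shared sites, Tmem184c was among the least alike for every pair. Its rho was -0.04 between cerebellum and cortex over 19 shared sites, 0.13 between cerebellum and hippocampus over 9, and 0.09 between hippocampus and cortex over 11. Its cerebellar maximum of 9.78% lay 361 nt from the 5′-most site. That site had 2.38% in cortex and was not listed in hippocampus. The maxima of hippocampus (9.47%) and cortex (10.81%) lay at 233 nt, where cerebellum had 4.49%. A site of Tmem184c at or above the level limit, left out by the rule, lay close to a member. Whether the regions share a maximum with that site kept was not tested. The maxima and rho values here are those of the sites kept in the chain. Of its 30 sites 23 were listed in cerebellum, 15 in hippocampus and 24 in cortex, and 7 in all 3. The longest chain was therefore also one whose sites were mostly listed in some regions and not in others, and its levels were between 1.92% and 10.81%.

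Other chains with at least 8 shared sites also had low values. Between cerebellum and cortex they were 0.12 in 1 chain of Hapln4, 0.24 in Camk2a and 0.36 in Map1b. The other chain of Hapln4 had 0.70 over 11 shared sites. Between cerebellum and hippocampus they were -0.24 in the LIM protein gene Fhl1, 0.29 in the coronin gene Coro2b and 0.40 in Cntn1. Between hippocampus and cortex they were -0.17 in Pde1a, 0.12 in Trim2 and 0.21 in Atp2b1. Pde1a had no cerebellar site. In its chain, the sites at 105, 109 and 113 nt had 7.98%, 7.98% and 8.82% in hippocampus, against 5.11%, 3.18% and 1.84% in cortex. The site 4 nt further had 5.39% in hippocampus and 5.49% in cortex. The regions were thus far apart at 113 nt and nearly equal 4 nt on.

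**Figure D5:**
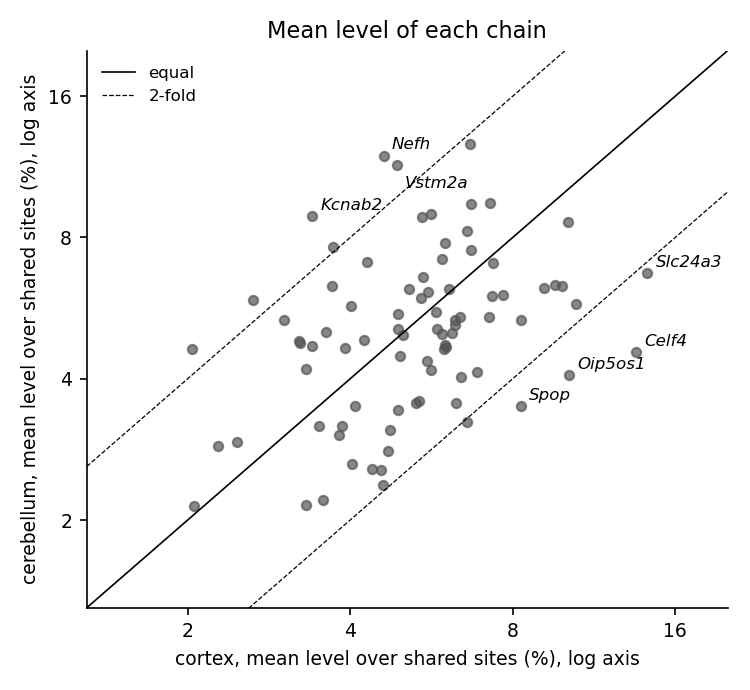
Mean editing level (percent, log axes) of each chain over the sites listed in both regions, cerebellum on the vertical axis and cortex on the horizontal axis, for 83 chains. Kcnab2, Nefh and Vstm2a lie above the upper 2-fold line, and Celf4, Oip5os1, Spop and Slc24a3 lie below the lower one.

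The mean level of a chain varied more between cerebellum and the other regions than between hippocampus and cortex. Over shared sites, the log2 ratio of chain means had a median of -0.18 and an SD of 0.64 for cerebellum over cortex (83 chains), -0.10 and 0.66 for cerebellum over hippocampus (74) and -0.06 and 0.31 for hippocampus over cortex (102). Chains with a mean more than 2-fold higher numbered 6, 5 and 0 for these pairs, and those more than 2-fold lower 5, 5 and 0. Every shared site was higher in cerebellum than in cortex in 9 chains and lower in 10. For cerebellum over hippocampus the numbers were 4 and 9, and for hippocampus over cortex 0 and 2. Sites of a chain moved partly together. The SD of the log2 ratio over the shared sites of these chains was 0.94 for cerebellum over cortex and 0.75 within chains, 0.89 and 0.72 for cerebellum over hippocampus, and 0.69 and 0.67 for hippocampus over cortex.

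At single sites, the shares of members past 2-fold were within 5 percentage points of the shares over all shared sites. For cerebellum over cortex, 97 of 708 shared members (13.7%) were more than 2-fold higher, beside 15.3% of all 6454 shared sites under 35%. Lower by more than 2-fold were 119 (16.8%), beside 12.1% of all. For cerebellum over hippocampus, 84 of 637 (13.2%) were higher, beside 15.2% of all shared sites, and 102 (16.0%) were lower, beside 11.4%. For hippocampus over cortex, 55 of 939 (5.86%) were higher, beside 7.37%, and 82 (8.73%) were lower, beside 8.18%. The median log2 ratio of members was -0.15, -0.13 and -0.08 for these pairs, against 0.08, 0.06 and -0.01 at sites outside these chains. Members of a chain share a transcript, and the difference in medians was not tested.

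The chains with the highest ratios of cerebellum over cortex were in Kcnab2, Nefh, Vstm2a and Hspa12a. Nefh, the heavy neurofilament protein of large axons, had a mean of 11.96% in cerebellum and 4.61% in cortex over 7 shared sites (log2 ratio 1.37), and all 7 were higher in cerebellum. Its site at 164 nt had 21.05% in cerebellum, 4.55% in hippocampus and 4.76% in cortex, and its site at 168 nt had 17.34%, 6.74% and 12.5%. Its first 3 and last 2 sites were listed in cerebellum alone. Kcnab2 had 8.88% in cerebellum and 3.40% in cortex (1.39), with 5 of 6 sites higher. Vstm2a, an immunoglobulin-domain protein gene, had 11.4% and 4.88% (1.22, 5 of 5 sites), and a chain of Hspa12a had 4.62% and 2.03% (1.18, 6 of 6).

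Against hippocampus, Dner had the largest ratio. Its mean was 9.72% in cerebellum and 2.49% in hippocampus over 5 shared sites (log2 ratio 1.97), and all 5 were higher in cerebellum. Its site at 145 nt had 15.72% in cerebellum and 2.86% in hippocampus, and the site at 42 nt had 9.09% and 1.20%. Of its 10 sites, all were listed in cerebellum, 5 in hippocampus and 2 in cortex. Insyn1, a protein of inhibitory synapses, had 5.66% in cerebellum and 1.51% in hippocampus (1.91). Kcnab2 (1.46) and Vstm2a (1.39) followed.

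Lower levels in cerebellum were clearest in Celf4. Its chain of 12 sites at chr18:25479572-25479697 on the minus strand had a mean of 4.56% in cerebellum and 13.5% in cortex over 8 shared sites (log2 ratio -1.57), and all 8 were lower in cerebellum. The site at 58 nt had 6.95% in cerebellum, 21.83% in hippocampus and 27.38% in cortex. The sites at 61 and 70 nt had 6.02% and 5.90% in cerebellum, 14.23% and 14.12% in hippocampus, and 17.36% and 20.34% in cortex. The cerebellar profile was nearly flat over these sites, while that of cortex had a marked maximum, although 58 nt was the highest site in every region. The other chains of Celf4 had 1, 3 and 5 sites in cerebellum, against at least 7 in both hippocampus and cortex.

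In Oip5os1, a conserved long non-coding RNA gene, 1 of 2 chains had 4.07% in cerebellum and 10.2% in cortex (-1.32, 5 of 5 sites lower). Its other chain had 2.77% over 3 sites in cerebellum and 2.08% over 8 in cortex, with too few shared sites for a ratio. Spop, an adaptor of a ubiquitin ligase, had 3.50% and 8.28% (-1.24, 6 of 6), and its site at 170 nt had 5.18% in cerebellum, 18.88% in hippocampus and 18.18% in cortex. The exchanger gene Slc24a3 had 6.72% and 14.2% (-1.08, 5 of 5). Against hippocampus, Celf4 (-1.28), Sv2b (-1.19, with 5.77% in cerebellum and 13.2% in hippocampus), Spop (-1.17) and Oip5os1 (-1.10) were the lowest. These chains of Celf4, Spop and Oip5os1 were lower in cerebellum against both regions, but the 2 comparisons share the cerebellum list.

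Between hippocampus and cortex no chain passed 2-fold. The highest ratios were 0.93 in Pde1a, with 6.13% in hippocampus and 3.22% in cortex, and 0.57 in the deubiquitinase gene Usp46, followed by Sel1l and Tsc22d1. The lowest were -0.92 in Zbtb18, a transcriptional repressor gene, with 2.06% in hippocampus and 3.91% in cortex, and -0.92 in Shroom2, with 5.85% and 11.1%. Leaving out genes named only by a clone, a chain of Paqr8 (-0.62) and that of Vstm2a (-0.56) came next. All 5 shared sites of Zbtb18 and all 7 of Shroom2 were lower in hippocampus, and these were the 2 chains of that kind.

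Panx2 and Syt2 show how the regions can differ at single sites of a chain. In Panx2, the site at 87 nt had 16.9% in cerebellum, 10.57% in hippocampus and 18.18% in cortex, while the site 12 nt before it had 4.76%, 6.98% and 18.0%. Cortex thus had a pair of nearly equal maxima where cerebellum and hippocampus had 1. In the chain of 8 sites in Syt2, all 8 were listed in cerebellum, 4 in cortex and none in hippocampus. Its site at 68 nt had 16.59% in cerebellum and 31.25% in cortex, and the next, at 73 nt, had 10.08% and 19.44%. The site at 28 nt, with 16.67% the highest of cerebellum, was not listed in cortex.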

How the data were processed

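The 20 poly(A) libraries were made with a directional kit from 900 ng of total RNA, per the labels' protocols. The submitters' processing notes name STAR 2.7.5 and mm10. Per the labels, APOBEC1-YTHmut was the background for site calling. The caller, its thresholds and the pooling of libraries are not stated. The authors deposited 1 list per region, with a fraction per site and no depth; columns left unmapped numbered 0.

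Sites were joined and chained as described above, and the peak was the site with the highest mean over the regions that list it. Spearman's rho and highest sites used sites listed in both regions, in chains with at least 5. Shares have exact binomial 95% intervals that cover counting only. RefSeq tables of GRCm38.p6 gave gene ends and bases. Genes were named by rank: the 10 chains with the most sites, the 6 longest, densest and highest, the 4 extremes per pair for rho (at least 8 shared sites) and ratio, the 6 genes with the most chains, the 4 chains on each side of the limit and up to 4 genes a list. Genes named only by a clone (names in Rik, or Gm and a number) were passed over for the next, and 1 other gene is not reported here. Genes named outside it (those without cerebellar sites, with 3 peaks, of cerebellum alone, and Arpc4) the 1.25-fold lead and the GAC and AAC count were chosen after values were seen. Members and lists were chosen with earlier results of these data known. The scripts were tested on simulated data, using scipy 1.17.1, pandas 2.3.3, numpy 2.4.6 and matplotlib 3.10.9 in Python 3.11.15.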

Additional observations from a re-analysis of the deposited data

How the results depend on the processing

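Keeping sites at 35% or more gave 1462 sites in 146 chains, with a median span of 0.166 kb and a median place of the peak of 0.55. Chaining whatever the gene gave the reported values of these 4, and other results were not computed under either change. The number of sites and chains, reported as 1452 and 145, depended on the gap and the length asked for. A gap of 25 nt gave 210 sites in 22 chains with a median span of 0.088 kb, and a gap of 100 nt gave 5188 in 443 with 0.308 kb. Chains of 6 or more gave 2875 in 369 with 0.123 kb, and chains of 12 or more gave 454 in 33 with 0.227 kb. Sites of at least 2% gave 851 in 88, and sites of 2 or more regions gave 630 in 65 with 0.149 kb. Chained by itself, the cerebellum list gave 454 in 46, the hippocampus list 660 in 68 and the cortex list 860 in 89. The median place of the peak was 0.74 with a gap of 25 nt. Between cerebellum and cortex, Pearson's correlation of log2 levels had a median of 0.70. Between cerebellum and hippocampus, rho was 0.75 with a gap of 25 nt, from 9 chains. With 8 or more shared sites the same site led in 70.8% of 24 chains. The level at 1 to 10 nt from the peak on either side was 50.4% with the peak in hippocampus and read in cortex, and 75.5% with the peak in cortex and read in cerebellum. At 51 to 100 nt it was 38.0%, 51.6% and, with the peak in cerebellum and read in hippocampus, 47.4%. Genes of the lists with a chain numbered 37, against 72 with chains of 6 or more and 15 with chains of 12 or more. The cause of these shifts, beyond fewer or more sites entering a chain, was not tested. In all, 50 of 82 alternative values stayed within the limits set. No paired analysis was possible because each region is 1 pooled list with no value per animal. For the same reason no replicate could be left out.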

Other observations

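Some chains held sites at a regular step, a pattern noticed after the values had been seen. In 6 of the 145 chains at least 3 gaps in a row had the same length. Nceh1 had 4 gaps of 5 nt, Brinp1, Hspa12a and Pde1a had 3 gaps of 4 nt, Map1b had 3 gaps of 6 nt and Paqr8 had 3 gaps of 9 nt. In chains of 4 to 7 sites, which have fewer gaps, 20 of 1082 had such a run. Along the run of Nceh1, the sites at 22, 27, 32, 37 and 42 nt had no value in cerebellum at the first 3, then 6.56% and 4.69%. In cortex they had 1.85%, 2.11%, 3.77%, 2.7% and 6.02%. The bases of these runs were not analysed here.

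Of the 284 sites left out at 35% or more, 2 lay within 50 nt of a member, in Atp6v1g2 and Tmem184c. Beside this, 5.65% of the sites under 35% were members themselves, and the difference was not tested. Runs that fell below 8 sites when a site was left out are not counted here. With the 284 sites kept, there were 146 chains with 1462 sites.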
